A study of Capra hircus with 27 samples.

Results

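Gene expression in the skeletal muscle of goats living at 3000 m was compared with that of goats living at 600 m. The genes described were the 11838 of 22131 in the expression table whose mean FPKM (a fragment number corrected for transcript length and library size) over the 6 compared muscle libraries was above 0.5. The 600 m goats came from Ya'an and the 3000 m goats from the A'ba area, both in Sichuan province, and the animals were about 3 years old. Per the study's methods they were unrelated adult females, and the study names its high-altitude goats Tibetan goats. No treatment or engineered allele is named in the labels. Muscle from goats at 2000 m (Zhaotong, Yunnan province, 3 libraries of the same age) stayed in the model, so that all 3 altitudes shared an estimate of the spread, and heart and lung of the same 3 populations served for comparison, which makes 27 libraries in all. Altitude and population coincide and cannot be told apart here.

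Skeletal muscle is made of contractile fibres that draw on both oxidative and glycolytic metabolism, and its fibre makeup, capillary supply and mitochondrial content are known to vary with training, breed and environment. Low oxygen at altitude is known to act on muscle through oxygen supply and fuel use. The table lists genes by annotation IDs that the files do not pair with symbols, and a table of goat gene names of another assembly held 0 of these IDs. The known roles of single genes, the sequences behind them and the usual markers of muscle, blood, fat or vessel cells therefore could not be given. Genes were grouped instead by their relative level in heart, lung and muscle. In bulk tissue, fewer cells of a type and less RNA per cell cannot be told apart, which holds for each level below.

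The libraries were compared before any gene. Muscle replicates 1 and 2 at 600 m were nearly the same: their log2 ratio had a robust SD of 0.0868 over genes above 50 FPKM, whereas that SD lay between 0.281 and 0.502 for the other within-altitude pairs of muscle libraries. Their FPKM was averaged and counted as 1 sample, which left 2 samples at 600 m and 3 at 3000 m. The labels do not say that replicates are separate animals, and p-values measure the spread between these samples. Absolute depth is unknown, since only FPKM was given. The relative depth, read from the value of 1 read among low genes, was 0.862 to 1.17 of the geometric mean over the 9 muscle libraries. It is approximate, since only 24 of the 36 library pairs lay within 0.05 of this fit on the log2 scale. Between 25.6% and 41.5% of the FPKM of a library fell on its 10 most abundant genes.

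At 3000 m, 94 genes were higher and 158 were lower than at 600 m (limma on log2(FPKM + 1), Benjamini-Hochberg adjusted p of at most 0.05, 252 genes called). These calls covered 2.13% of the tested genes, with 0.794% called higher and 1.33% called lower. At an unadjusted p under 0.05 the number was 2723. The genes called higher had a median log2 change of 1.63 and ranged from 0.91 to 5.50. The genes called lower had a median of -1.72 and ranged from -0.95 to -11.13. The change was at least 2-fold on this scale for 247 of the 252 genes and at least 4-fold for 89, of which 24 were higher and 65 were lower. The median over all tested genes was -0.09, with a median SE of 0.26. With quantile normalization of the libraries 165 genes were called, 81 higher and 84 lower, so the share of higher calls moved from 37.3% to 49.1%. With median-of-ratios scaling 230 genes were called, 80 higher and 150 lower, and that share was 34.8%.

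The number of calls depended strongly on single samples. When the merged 600 m sample was left out it was 627, and when 600 m replicate 3 was left out it was 55. Omission of 3000 m replicate 1, 2 or 3 gave 53, 784 and 32. Omission of 2000 m replicate 1, 2 or 3, which only changes the estimate of the spread, gave 147, 124 and 85. With only the compared groups in the model 17 genes were called, and 16 of these were among the 252.

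At 600 m the genes called lower were mostly more abundant than those called higher. The 600 m level entered the contrast that chose these genes, so part of this gap is fixed by the choice. At 3000 m the order was reversed. The median over the 158 lower genes of the mean FPKM was 45.4 at 600 m and 7.78 at 3000 m. Over the 94 higher genes it was 3.83 at 600 m and 13.4 at 3000 m. For all tested genes, the median of the mean FPKM over the compared samples was 6.91. Among the lower genes, 52 had a mean of 100 FPKM or more at 600 m and 16 at 3000 m. Among the higher genes the number went from 6 to 13. Calls were most frequent among abundant genes: of 757 genes with a mean of 100 FPKM or more, 10 were called higher and 32 lower (5.55%), while of 1065 genes under 1 FPKM 4 were called higher and 3 lower (0.657%). The log2(FPKM + 1) scale understates the change of low genes.

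Few of the called genes went from being listed near 0 to a level or back. All 600 m libraries were under 1 FPKM for 16 of the 94 higher genes, and 2 of these were listed at 0 in each 600 m library. All 3000 m libraries were under 1 FPKM for 12 of the 158 lower genes, and 1 of these was listed at 0 in each of them. A gene near 0 at 600 m or 3000 m passed the filter on mean FPKM only through its level at the other altitude. The same counts were not made over all tested genes, so these numbers are a description. For every called gene the 3 libraries of 3000 m lay outside the range of the 3 libraries of 600 m. That separation also held for 4282 of the tested genes (36.2%), so it does not set the called genes apart.

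**Figure D1:**
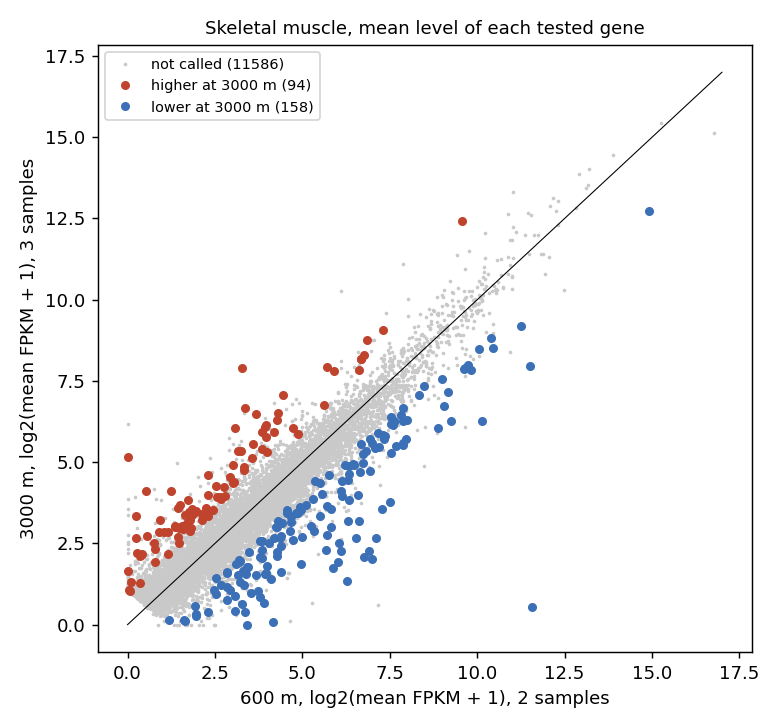
log2(mean FPKM + 1) in skeletal muscle at 600 m (horizontal axis, 2 samples) and 3000 m (vertical axis, 3 samples) for the 11838 tested genes, with genes called higher at 3000 m in red, genes called lower in blue, the rest in grey and the line of equal levels. The 158 lower genes lie mostly further to the right than the 94 higher genes, with a median of the mean FPKM at 600 m of 45.4 against 3.83. Part of this gap is fixed, since the genes were chosen by the same values.

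Single genes were taken from those called in each of 11 checked fits (8 that left out a sample, 2 other scalings and a pseudocount of 0.1), which were 6 higher and 14 lower genes. The 6 higher genes rose by 1.76 to 2.40 on the log2 scale, and their mean FPKM was 0.177 to 13.3 at 600 m and 5.28 to 59.6 at 3000 m. The 14 lower genes had log2 changes from -1.87 to -11.13, with mean FPKM of 6.58 to 3050 at 600 m and 0 to 76.5 at 3000 m. Of the 6 higher genes, 4 carried IDs of the GLEAN kind, which are gene predictions with no homologue named in the ID, as did 1 of the 14 lower genes. Such IDs made up 6.95% of the tested genes, and were carried by 15 of the 94 genes called higher and 14 of the 158 called lower.

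goat_GLEAN_10008204 was listed at 0, 0.228 and 0.240 FPKM in the 3 muscle libraries at 600 m. It measured 6.10, 3.89 and 3.79 FPKM at 2000 m and 6.23, 4.06 and 5.57 FPKM at 3000 m. The 600 m libraries were all low and those of the higher altitudes did not overlap them. Its mean was 0.177 ± 0.0893 FPKM (SD, n = 2) at 600 m and 5.28 ± 1.11 FPKM (SD, n = 3) at 3000 m, so the log2 change was 2.40 with an SE of 0.25 (limma adjusted p = 0.00504). In heart its FPKM went from 0.291, 0.269 and 0.532 at 600 m to 7.25, 9.13 and 7.21 at 3000 m, and in lung from 0, 0.389 and 0.406 to 4.44, 7.13 and 11.4. No library of either tissue overlapped between these altitudes, and the muscle change did not differ detectably from that in heart (difference -0.29, SE 0.36, limma adjusted p = 0.725) or lung (-0.31, SE 0.36, limma adjusted p = 0.737).

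goat_GLEAN_10020314 measured 1.13, 0.308 and 1.11 FPKM in muscle at 600 m. Its values were 8.34, 4.49 and 4.66 FPKM at 2000 m and 8.59, 9.31 and 7.27 FPKM at 3000 m. Replicate 2 at 600 m was lower than the near-identical replicate 1, and the 3000 m libraries lay far above all 600 m libraries and overlapped those of 2000 m. The mean rose from 0.913 ± 0.272 FPKM (SD, n = 2) to 8.39 ± 1.03 FPKM (SD, n = 3), so the log2 change was 2.30 with an SE of 0.27 (limma adjusted p = 0.0089). Its log2 change was 2.26 in heart (SE 0.20, limma adjusted p = 0.01) and 1.90 in lung (SE 0.35, limma adjusted p = 0.0355), neither of which differed detectably from the change in muscle (limma adjusted p = 0.978 and 0.705).

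GOAT_ENSP00000364092 had the largest fall among the called genes. It measured 2730, 2250 and 3610 FPKM at 600 m and 3450, 1270 and 2350 FPKM at 2000 m. At 3000 m it was listed at 0 in replicates 1 and 3 and measured 1.38 FPKM in replicate 2. The gene was thus abundant in each library of the lower altitudes and close to 0 in each 3000 m library. The log2 change of -11.13 (SE 0.48, limma adjusted p = 1.44e-05) depends on the pseudocount and is not a bound. The 2000 m level did not differ detectably from that at 600 m (log2 difference -0.46, SE 0.48, limma adjusted p = 0.56).

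In heart and lung GOAT_ENSP00000364092 was also near 0 at 3000 m, at 0, 1.84 and 0 FPKM in heart and 1.39, 5 and 0 FPKM in lung. At 600 m it measured 9.92, 5980 and 4720 FPKM in heart and 2.06, 4380 and 3140 FPKM in lung. Replicate 1 was therefore near 0 in both tissues while muscle replicate 1 stood at 2730 FPKM, beside 2250 FPKM in muscle replicate 2. Per the study's methods, heart, lung and muscle of each compared population were taken from the same animals. Whether equal replicate numbers stand for 1 animal across tissues is not stated in the labels. Together with the near identity of muscle replicates 1 and 2, these values leave the animal behind each of these 600 m muscle libraries in doubt. The values of this gene set replicate 1 apart from heart and lung replicate 1. The deviations of replicate 1, however, correlated with those of heart and lung replicate 1 (0.195 and 0.199). Those of replicate 2 did not with heart and lung replicate 2 (-0.071 and -0.075). The origin of these libraries was not tested, and the merged 600 m sample and the fall of this gene are to be read with that doubt. The log2 change was -8.90 in heart (SE 2.10, limma adjusted p = 0.0331) and -7.16 in lung (SE 2.41, limma adjusted p = 0.101), and its difference from the muscle change was not detectable at this spread (limma adjusted p = 0.758 and 0.556).

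GOAT_ENSP00000225688 measured 115, 122 and 119 FPKM in muscle at 600 m, 6.91, 1.93 and 4.88 FPKM at 2000 m and 1.44, 6.05 and 3.84 FPKM at 3000 m. Only the 600 m libraries were high, and the other altitudes overlapped each other. The mean was 119 ± 0.477 FPKM (SD, n = 2) at 600 m and 3.78 ± 2.30 FPKM (SD, n = 3) at 3000 m, so the log2 change was -4.78 with an SE of 0.48 (limma adjusted p = 0.00463). In heart it measured 2.98, 5.80 and 3.96 FPKM at 600 m and 1.53, 2.71 and 3.74 FPKM at 3000 m. In lung it measured 4.19, 2.62 and 2 FPKM at 600 m and 3.54, 6.96 and 3.88 FPKM at 3000 m. Heart and lung were low at both altitudes, with log2 changes of -0.53 (SE 0.27, limma adjusted p = 0.211) and 0.55 (SE 0.36, limma adjusted p = 0.353). The fall in muscle differed from the change in heart by -4.25 (SE 0.59, limma adjusted p = 0.000777) and from that in lung by -5.33 (SE 0.59, limma adjusted p = 5.98e-05).

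**Figure D2:**
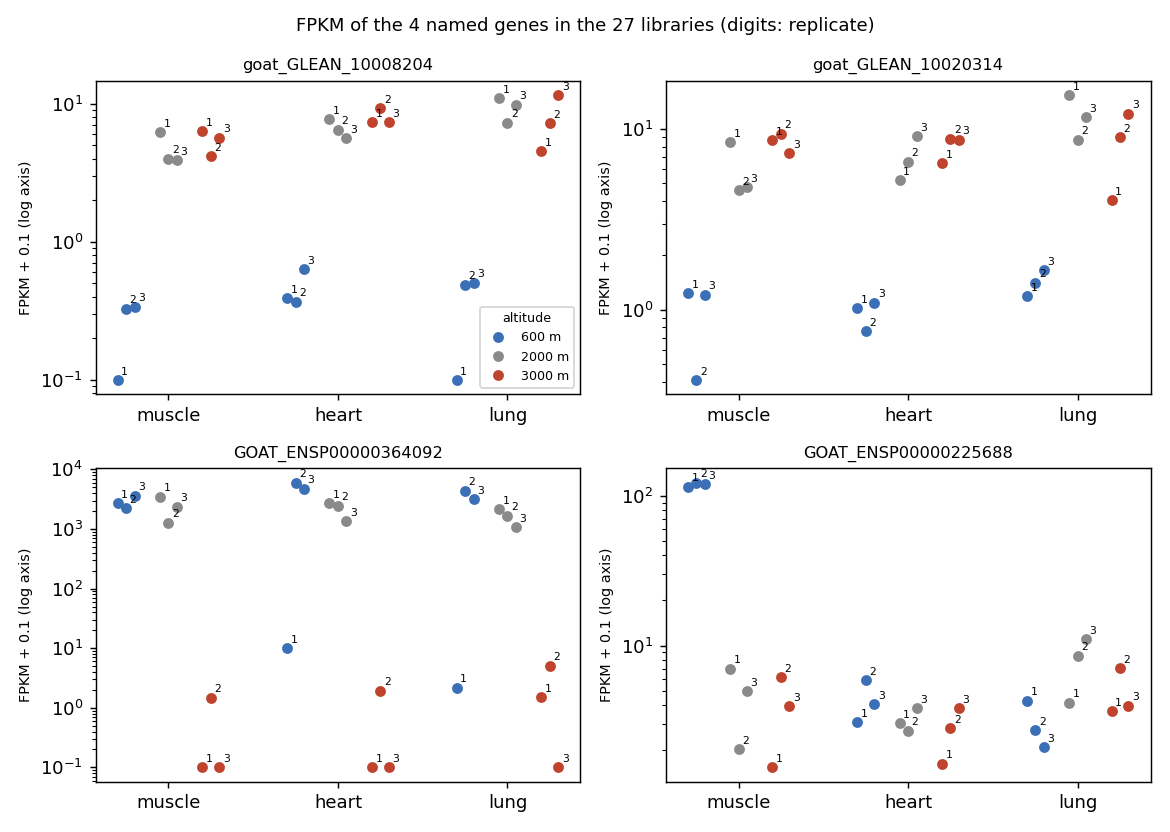
FPKM of the 4 described genes in the 27 libraries of muscle, heart and lung, drawn as FPKM + 0.1 on a logarithmic vertical axis, with 1 point per library, the altitude as colour and the replicate number beside it. In muscle both GLEAN genes are low at 600 m alone, GOAT_ENSP00000225688 is above 100 FPKM in the 600 m muscle libraries alone, and GOAT_ENSP00000364092 is near 0 in all 3000 m libraries and in replicate 1 of 600 m heart and lung.

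The level of the called genes was also read in muscle of the 2000 m goats. The genes were chosen for standing apart at 600 m and the same 600 m samples enter both comparisons, so the values below are a description. The 2000 m mean was nearer to 3000 m than to 600 m on the log2 scale for 76 of the 94 higher genes and for 148 of the 158 lower genes. Among all tested genes the same held for 59.7% of the 5068 with a positive change and 77.4% of the 6770 with a negative one. All 2000 m libraries lay above all 600 m libraries for 84 of the higher genes, against 14.5% of the tested genes. They all lay below them for 152 of the lower genes, against 26.4% of the tested genes. The 2000 m mean lay between both other altitudes for 77 higher and 82 lower genes, beyond that of 3000 m for 16 and 75, and beyond that of 600 m for 1 and 1. Over the lower genes the median of the mean FPKM was 7.80 at 2000 m, against 7.78 at 3000 m. Between 3000 m and 2000 m limma called 1 gene, with 1023 at an unadjusted p under 0.05. The 2000 m libraries entered the fit but not the contrast that chose the genes.

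The samples of an altitude were not equally far apart on the called genes. Taken against the midpoint of the 600 m and 3000 m means, the median level of the higher genes was -0.62 in the merged 600 m sample and -1 in 600 m replicate 3, on the log2 scale. It was 0.90, 0.64 and 0.90 in the 3000 m samples. For the lower genes it was 0.68 and 1.01 at 600 m and -0.93, -0.63 and -1.08 at 3000 m. Replicate 3 at 600 m thus lay further from the 3000 m samples than the merged sample, and replicate 2 at 3000 m lay nearer to 600 m than replicates 1 and 3. The 3 libraries at 2000 m gave 0.50, 0.60 and 0.40 for the higher genes and -0.84, -0.85 and -0.72 for the lower ones, on the side of 3000 m in each case.

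Genes with a heart or muscle profile had a higher median change than the tested genes as a whole. The profiles were set on the 2000 m libraries of the 3 tissues, where a group held genes with a mean of at least 1 FPKM in a tissue and at least 4 times the level of the tissues outside the group. Of 286 muscle-enriched genes, 12 were called higher and 7 lower (6.64%), and their median log2 change was 0.39, against -0.09 over all tested genes. Of 357 genes of heart and muscle, 10 were called higher and 5 lower (4.20%), with a median of 0.35. Of 159 heart-enriched genes, 7 were called higher and 0 lower (4.4%), with a median of 0.36. A positive change was measured for 69.2%, 72.3% and 73.0% of these groups, and for 42.8% of all tested genes.

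The broadly expressed and lung-enriched genes had medians near or below 0. The 7386 broadly expressed genes, which reached 1 FPKM in each tissue and differed by less than 4 times between any pair of them, had a median of -0.14, with 41 called higher and 90 lower (1.77%). The 1006 lung-enriched genes had a median of -0.08, with 10 called higher and 24 lower (3.38%). The 241 genes of heart and lung had a median of -0.03, with 0 called higher and 3 lower. The 70 genes of lung and muscle had a median of 0.41, but it was 0.05 when the profiles were set on all libraries of each tissue. Under that choice the median was 0.34 for muscle-enriched genes, 0.35 for genes of heart and muscle and 0.41 for heart-enriched genes.

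The samples of an altitude differed in the level of these groups. Against the midpoint of both altitudes, the median level of muscle-enriched genes was 0.012 in the merged 600 m sample and -0.393 in 600 m replicate 3, and 0.168, 0.123 and 0.296 in the 3000 m samples. In the 2000 m samples, which set the profiles, this level was 0.277, 0.538 and 0.425. For heart-enriched genes it was -0.149 and -0.267 at 600 m and 0.295, -0.007 and 0.127 at 3000 m. The 3000 m samples lay above both 600 m samples in each of these groups. Without 600 m replicate 3 the median change of muscle-enriched genes was 0.23, and without the merged sample it was 0.57. The number of called genes in the group ranged from 1 to 51 over the fits that left out a sample.

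**Figure D3:**
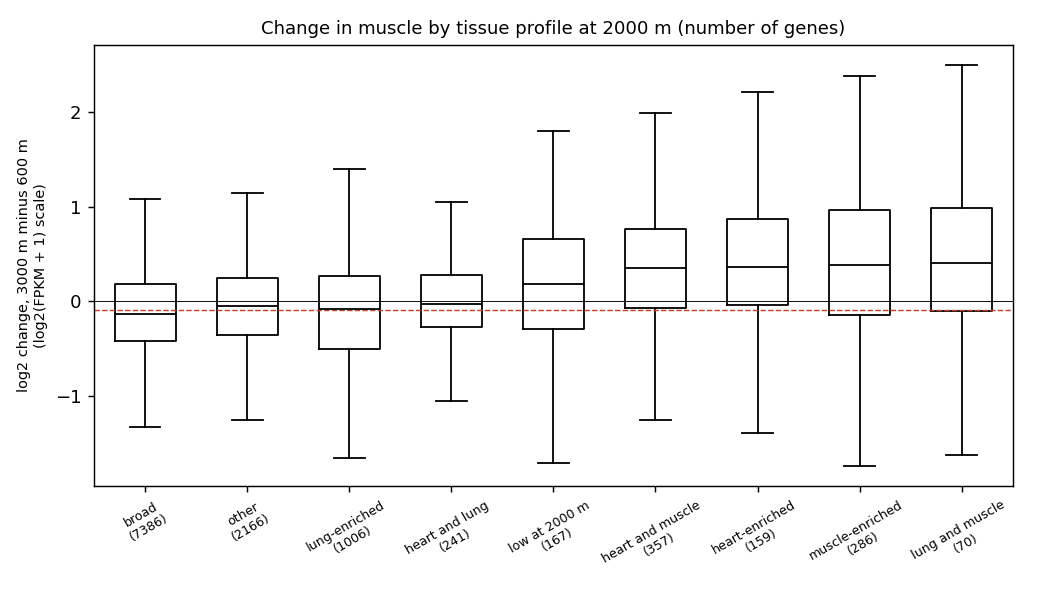
Distribution of the log2 change from 600 m to 3000 m in muscle (vertical axis, log2(FPKM + 1) scale) by tissue profile, with the number of genes in brackets, the box at the quartiles, the line at the median, whiskers to the last gene within 1.5 times the interquartile range, and genes beyond them not drawn. The red dashed line is the median of all tested genes (-0.09), above which lie the medians of muscle-enriched, heart and muscle, and heart-enriched genes (0.39, 0.35 and 0.36), while that of broadly expressed genes (-0.14) lies below it.

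The same profiles were followed as shares of the total FPKM of a sample. Muscle-enriched genes held 16.8% and 13.7% of the FPKM in the 600 m samples and 21.6%, 23.9% and 25.9% in the 3000 m samples. The groups did not overlap, at 15.3% ± 2.19 (SD, n = 2) and 23.8% ± 2.14 (SD, n = 3), and the exact two-sided permutation test gave p = 0.1, the smallest value that 2 against 3 samples allow. Genes of heart and muscle held 12.7% and 14.0% at 600 m and 20.7%, 16.3% and 20.5% at 3000 m. The broadly expressed genes held 60.6% and 62.3% at 600 m against 45.0%, 50.6% and 42.6% at 3000 m. Heart-enriched genes held 2.71% and 1.17% at 600 m and 4.72%, 1.75% and 3.39% at 3000 m, so their shares overlapped. Lung-enriched genes held 0.908% and 1.2% at 600 m and 0.811%, 0.872% and 0.847% at 3000 m. The exact permutation p was 0.2 for heart and muscle, 0.4 for heart-enriched, 0.1 for lung-enriched and 0.1 for broadly expressed genes. No share passed 0.05, which this design cannot reach. Shares of FPKM within a sample depend on each other. In the 2000 m muscle samples, which helped to set the profiles, muscle-enriched genes held 26.3%, 27.5% and 31.2%. Their larger share at 3000 m than at 600 m may be partly fixed by that choice.

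A single gene moved with these shares. The most abundant gene of the 600 m libraries, which is broadly expressed and was singled out after its values were seen, reached 197000, 136000 and 60000 FPKM in the 600 m libraries and 38300, 33900 and 35300 FPKM in the 3000 m libraries. It was highest in the near-identical replicates 1 and 2, and its log2 change of -1.48 was not called (limma adjusted p = 0.116). It held 20.1% of the FPKM of the merged 600 m sample and 8.85% of replicate 3, and 4.97% to 5.28% at 3000 m. Without it, the broadly expressed genes held 50.7% and 58.7% at 600 m and 42.0%, 47.9% and 39.6% at 3000 m, and their exact permutation p went from 0.1 to 0.2. On the same basis muscle-enriched genes held 21.0% and 15% at 600 m and 22.8%, 25.2% and 27.2% at 3000 m. The shares of both groups still did not overlap between the altitudes, but for muscle-enriched genes the merged 600 m sample lay nearer to the 3000 m samples than with the gene included.

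**Figure D4:**
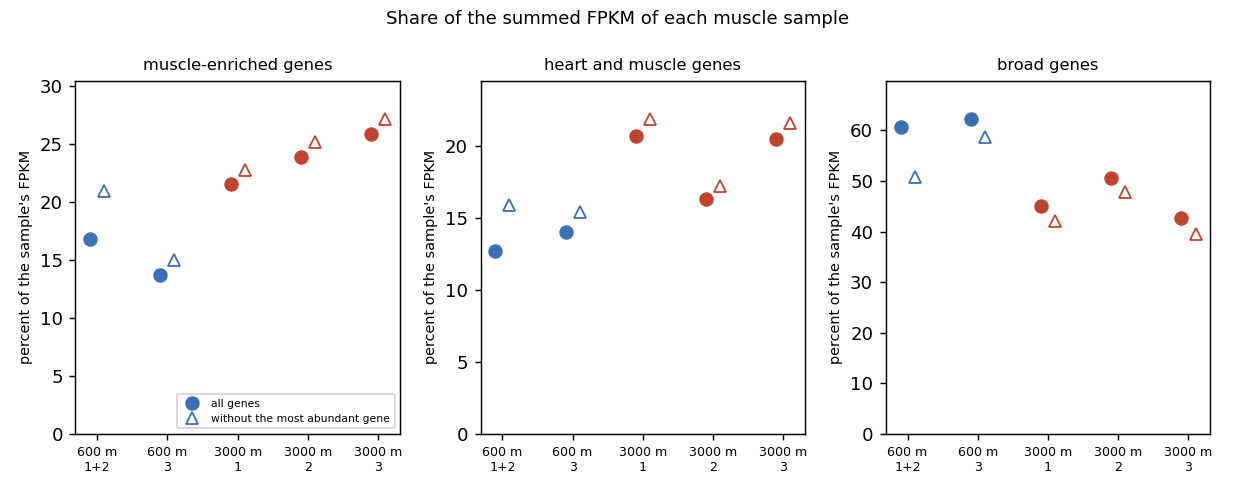
Share of the summed FPKM held by muscle-enriched, heart and muscle, and broadly expressed genes in each compared muscle sample (percent, axes from 0), with 600 m in blue and 3000 m in red, over all genes (circles) and without the most abundant gene of the 600 m libraries (triangles). Muscle-enriched genes hold 16.8% and 13.7% at 600 m and 21.6% to 25.9% at 3000 m over all genes.

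Most genes called in muscle had the same sign of change in heart and in lung, but most of them were not called there. Per the study's methods the tissues of each compared population came from the same animals, so heart and lung are not an independent check. Over the same 11838 genes, limma called 12.2% between 3000 m and 600 m in heart and 5.88% in lung. Of the 94 genes higher in muscle, 83 were also higher in heart and 38 were called higher there, with 0 called lower. In lung 70 of the 94 were higher, 12 were called higher and 1 was called lower. Of the 158 genes lower in muscle, 133 were lower in heart and 33 were called so, with 0 called higher. In lung 140 were lower, 45 were called lower and 1 was called higher. Over all tested genes 56.8% of the changes were positive in heart and 38.5% in lung.

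The changes in the other tissues were smaller on the whole. The genes higher in muscle had a median log2 change of 1.63 in muscle, 0.71 in heart and 0.42 in lung. Those lower in muscle had medians of -1.72, -0.65 and -0.72. These genes were chosen for their change in muscle, so a larger median there is partly fixed by the choice. In both other tissues, 63 of the higher and 124 of the lower genes had the sign of muscle, and 10 and 19 were called with that sign in both.

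**Figure D5:**
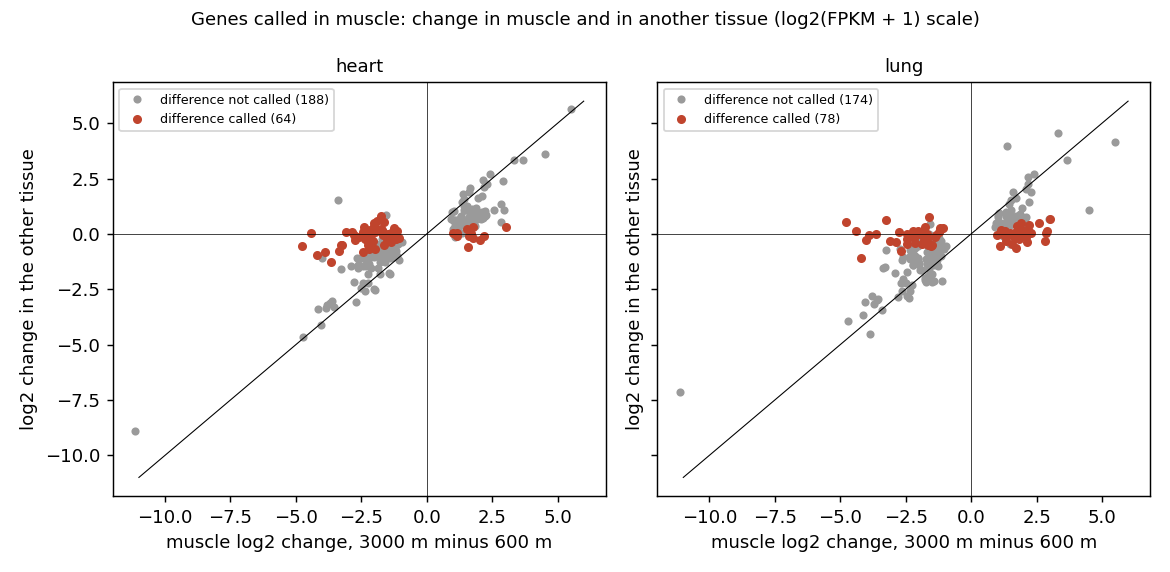
Log2 change from 600 m to 3000 m in muscle (horizontal axis) against that in heart or lung (vertical axis) for the 252 genes called in muscle, with 1 point per gene, the line of equal change, and in red the genes whose change differed between the tissues by limma (64 for heart and 78 for lung). In heart 85.7% and in lung 83.3% of these genes have the sign they have in muscle, and most red points lie near a change of 0 in the other tissue.

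Whether the muscle change differed from that of another tissue was tested directly. The main fit took the samples of all tissues as separate, although tissues of each compared population came from the same animals. The muscle change minus the heart change was called for 204 genes (1.72%), of which 56 were higher and 148 lower in muscle. The muscle change minus the lung change was called for 229 genes (1.93%), of which 140 were higher and 89 lower. With 600 m muscle replicates 1 and 2 as separate samples these numbers were 290 and 359. With same-numbered samples of an altitude also taken as a block over the tissues, they were 418 and 483. Such a block stands for an animal only if equal numbers do, which the labels do not state. In the main fit both differences were called for 86 genes, 32 with a higher and 54 with a lower change in muscle. Among the 252 genes called in muscle, 64 differed from heart and 78 from lung, and 46 differed from both. Among muscle-enriched genes the difference from heart was called higher for 15 and lower for 13, and the difference from lung for 23 and 10. The median change of muscle-enriched genes was 0.39 in muscle, 0.09 in heart and 0.05 in lung, while that of heart-enriched genes was 0.36, 0.32 and 0.07. Each profile was set by a lower level outside its own tissues, and the log2(FPKM + 1) scale understates the change of low genes. The smaller medians of muscle-enriched genes in heart and lung may thus be partly fixed by that choice, as may their calls above. These values therefore cannot tell whether the response of this group was specific to muscle.

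Calls were also counted by the kind of annotation ID, beside the 2.13% over all tested genes, and the differences between kinds were not tested. Of 823 GLEAN predictions, 15 were called higher and 14 lower (3.52%). Of 5432 genes with IDs of the ENSP kind, 46 were called higher and 69 lower (2.12%). Of 5583 genes with IDs of the ENSBTAP kind, 33 were called higher and 75 lower (1.93%). Among 245 tested genes whose ID ends in a mark of an additional copy, 3 were called higher and 4 lower. Reads of such copies may have been split between near-identical genes, so their values are uncertain.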

How the data were processed

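Per the labels, strand-specific libraries were prepared from total RNA. The authors aligned the reads with TopHat2 2.0.11 and estimated FPKM with Cufflinks 2.2.1 (per the submitters' processing notes), and deposited the values as log2(FPKM + 1). FPKM was recovered by undoing the log. Groups were taken from the labels.

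Altitudes were compared on the log2(FPKM + 1) scale with limma 3.58.1 (lmFit, then trended eBayes) over 11838 genes, two-sided, with Benjamini-Hochberg adjustment at 0.05. limma stands in place of Cuffdiff, which the study used and which needs other files. Differences between tissues were interaction contrasts in a fit of all tissue-by-altitude groups, with no term for the animal in the main fit. Tissue profiles used (FPKM + 0.1) ratios of at least 4. Gene lists planned by symbol could not be used. At most 2 rising and 2 falling IDs were named, those of largest change among genes called in all checked fits without overlap, and 1 further gene is described without its ID. Members and lists were chosen with earlier results of these data known.

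The steps were tested on simulated data. Alternatives covered the samples in the fit, merging, pseudocount, filters, scaling, moderation, profile definitions and leaving out samples. R 4.3.3, Python 3.11.15, NumPy 2.4.6, pandas 2.3.3 and matplotlib 3.10.9 were used.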

Additional observations from a re-analysis of the deposited data

Results flagged for a closer look

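The change from 600 m to 3000 m differed between muscle and another tissue by a test of the difference itself (limma interaction contrasts). It differed from that of heart for 204 genes and from that of lung for 229 genes, with 2056 and 1990 at an unadjusted p under 0.05. Among the 4 described genes, the difference was called only for GOAT_ENSP00000225688, whose fall in muscle differed from the change in heart by -4.25 and from that in lung by -5.33 on the log2 scale.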

How the results depend on the processing

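The 252 genes called became 17 when the fit held the compared groups alone, 906 with 600 m replicates 1 and 2 as separate samples, 39 without a filter on low values (16857 genes tested) and 165 with quantile normalization, and a filter at a mean of 5 FPKM gave 338 of 6917 genes. With separate replicates the calls were 528 for broadly expressed, 42 for heart and muscle, 23 for heart-enriched, 92 for lung-enriched and 41 for muscle-enriched genes. A pseudocount of 0.1 gave 12 heart-enriched calls with a median of 0.52, and a lung-enriched median of -0.14. Quantile normalization gave 10 lung-enriched calls, and a profile ratio of 8 gave 4 heart-enriched and 13 lung-enriched calls. Without 1 sample each, all calls ranged from 32 to 784, with 17 to 467 for broadly expressed, 2 to 44 for heart and muscle, 0 to 27 for heart-enriched, 4 to 72 for lung-enriched and 1 to 51 for muscle-enriched genes, and the medians from 0.23 to 0.57 for muscle-enriched and -0.13 to -0.02 for lung-enriched genes. A 600 m group left with 1 sample is assumed to vary like the other groups.

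The difference from heart was called for 62 genes and that from lung for 98 with only the 3000 m and 600 m libraries, and without 1 sample each for 69 to 765 and 71 to 648. With separate replicates it was 290 for heart and 359 for lung, and for lung it was 423 with quantile normalization. The share of muscle-called genes with the same sign was 76.5% in heart and 88.2% in lung for the 17 genes of the compared groups alone, and 72.7% to 84.4% and 78.1% to 87.3% without 1 sample each (these shares were added after seeing the data).

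Same-numbered muscle samples of 600 m and 3000 m did not deviate together (correlations 0.071, -0.192 and -0.203), so they share only a number. A replicate block, with separate 600 m replicates, gave 454 calls, against 906 without the block. Same-numbered 3000 m samples did deviate together (0.259 to 0.299 for muscle and heart, 0.167 to 0.218 for muscle and lung). Different-numbered 3000 m pairs gave -0.221 to 0.005 with heart and -0.147 to -0.007 with lung. At 600 m, muscle replicates 1 and 3 gave 0.195 and 0.307 with heart, and 0.199 and 0.283 with lung. Replicate 2 at 600 m did not deviate together with heart or lung (-0.071 and -0.075). Different-numbered 600 m pairs spread from -0.28 to 0.264 with heart and from -0.266 to 0.238 with lung. A block of same-numbered samples of an altitude over the tissues was also fitted, with separate 600 m replicates. The differences from heart and lung were then called for 418 and 483 genes. The 4 described genes were called under each alternative that tested them, which for the 11 checked fits was fixed by how they were chosen. All 252 genes kept their sign wherever tested, which the lack of overlap largely fixes. The cause of these changes was not tested. FPKM keeps no absolute depth, so the precision of low genes is unknown.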
